A study of Mus musculus with 12 samples.

Results

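The genes described here are 10 brakes of the mouse cell cycle, 7 CDK inhibitors (Cdkn1a, Cdkn1b, Cdkn1c, Cdkn2a, Cdkn2b, Cdkn2c and Cdkn2d) and 3 retinoblastoma proteins (Rb1, Rbl1 and Rbl2). They were chosen by name, with earlier results of these data known. A non-control probe counted as a member's when its RefSeq accession carried one of these symbols, which gave 14 of the 55681 probes and at least 1 probe for each of the 10 genes. A filter on dim probes kept 8 of the 10 genes, among 24183 genes tested in all. Cdkn2a and Cdkn2b were not well above background on all arrays of any group and were not tested.

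The arrays measured RNA of DKO172 cells, a female mouse line that came from a fallopian tumor, after transfection with a plasmid. There were 4 groups of 3 single-colour arrays. The cells had received the vector pLD-hygro-EnVM coding for DICER1 G1809R, for DICER1 D1709N, for wild-type DICER1 (WT) or, as the control, for GFP. All groups were alike in the rest of the protocol. Cells plated at 200000 per well received 2 µg of plasmid, were re-plated at 24 h, and were harvested at 108 h after 84 h of selection with 300 µg/ml hygromycin. DICER1 cuts microRNAs out of their precursors, and the line is known from the study, not from the labels, to lack a working Dicer1 of its own. All 4 groups share that background, and the introduced genes were expressed from a plasmid rather than from the cells' own locus. The labels number the arrays of a group 1 to 3 without saying whether these were separate cultures, so the p-values rest on a spread that may be technical.

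CDK inhibitors bind the kinases that drive cells from G1 into S phase. The INK4 proteins, coded by the Cdkn2 genes, bind CDK4 and CDK6, and the CIP/KIP proteins, coded by the Cdkn1 genes, bind cyclin and CDK complexes more broadly. The retinoblastoma or pocket proteins hold E2F transcription factors in check until CDKs phosphorylate them. Several of these genes are known microRNA targets, which is why 5 mature sequences are given here from RefSeq (GRCm38.p6). Members of the miR-17 family are known to act on Cdkn1a and on pocket protein genes, and miR-221 and miR-222 on CDKN1B and CDKN1C in human cells. Bases 2 to 8, the seed that pairs with targets, are in capitals.
mmu-miR-17-5p: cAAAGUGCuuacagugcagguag
mmu-miR-93-5p: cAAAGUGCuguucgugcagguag
mmu-miR-106b-5p: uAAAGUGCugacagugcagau
mmu-miR-221-3p: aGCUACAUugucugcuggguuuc
mmu-miR-222-3p: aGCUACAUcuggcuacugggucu
The first 3 share the seed AAAGUGC and come from the 5′ arm of their precursor. The other 2 share GCUACAU and come from the 3′ arm. D1709N and G1809R lie in the RNase IIIb domain of DICER1, which is known to cut the 5′ arm. The arrays measured gene RNA and no mature microRNA, so the level of these 5 in DKO172 cells was not analysed here.

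Levels are given as log2 intensities set against each array's own 75th percentile, so a difference of 1 is a doubling. A level of 1 probe is not set against that of another. A gene was called when its limma p-value, adjusted by Benjamini-Hochberg over all 24183 genes, was under 0.05. Arrays with the same number deviated together from their group means (correlations of 0.60 to 0.85 over 18 pairs of arrays). Replicate 1 of each group was on slide 1, and replicates 2 and 3 were on slide 2. Arrays with different numbers were not compared, so these correlations do not tell a pairing of the samples from a slide effect. Replicates 2 and 3 shared slide 2, yet the mean level of 6 listed interferon-stimulated genes differed between them in every group. It was 2.56 and 0.50 with G1809R, 1.91 and −0.02 with D1709N, 3.10 and 0.66 with WT and 0.09 and −2.01 with GFP. The source of this difference was not tested. Each result is therefore given from a fit on group alone and, where it changed the call, with the replicate number as a block. WT replicate 1 stood apart, with 82.7% of probes well above background against 49.5% to 71.4% on the other arrays and correlations of 0.975 and 0.978 with the other WT arrays. Markers of Muellerian epithelium were mixed, with Krt18, Wt1, Krt19, Krt8, Ovgp1 and Krt7 well above background on 12 arrays. Epcam was above it on 11, Cdh1 on 10, Muc1 on 5, Pax8 on 4 and Foxj1 on 4. The stromal markers Vim, Thy1, Pdgfra, Col1a1, Col1a2 and Amhr2 were above it on 12 arrays, and the defining leukocyte and endothelial markers Ptprc and Cdh5 on 5 and 0. Some of these markers also differed between groups. Of 7 stromal markers, 1 fell with WT against GFP on group alone, Pdgfra, at −0.90 ± 0.02 with WT and 0.00 ± 0.16 with GFP (SD, n = 3 each, limma adjusted p = 0.0074), and it was called in 12 of 12 fits that left out an array. With the block 8.61% of all genes were lower and 9.18% higher in that comparison. Of the stromal markers 2 then fell, Pdgfra and Vim (4.76 ± 0.35 with WT and 5.53 ± 0.45 with GFP), and 2 rose, Thy1 and Pdgfrb. Against WT these 4 had the opposite sign with each mutant, with 2 higher and 2 lower in the blocked fit, and on group alone Pdgfrb was lower with D1709N (−1.11 ± 0.21 SE, adjusted p = 0.0342), a call kept in 2 of 12 fits that left out an array. Of 8 tested epithelial markers, limma called 0 in each comparison on group alone, with at most 2 at an unadjusted p under 0.05. With the block 4 rose with D1709N against WT (Wt1, Krt7, Krt18 and Krt8, the last at 5.07 ± 0.48 with D1709N and 4.31 ± 0.64 with WT), 2 with G1809R against WT (Wt1 and Krt8) and 1 with WT against GFP (Krt19). The endothelial marker Kdr was lower with each mutant than with WT in the blocked fit. Against GFP, that fit called 2 epithelial markers higher with D1709N and 1 with G1809R. It called 2 stromal markers and 1 endothelial marker lower with each mutant. Of all genes, 7.12% were higher and 8.42% lower with D1709N against WT in the blocked fit, and 6.36% and 6.31% with G1809R. Against GFP these shares were 1.77% and 2.49% with D1709N, and 1.75% and 1.98% with G1809R. All of 6 listed interferon-stimulated genes were above background on every array. On group alone limma called 1, higher with WT than with GFP, and 0 in the other comparisons. With the block 6 were higher with WT, 5 with G1809R and 2 with D1709N, each against GFP. That fit also called 4 lower with D1709N than with WT. The list's mean level ranged from 0.50 to 2.56 with G1809R, −0.09 to 1.91 with D1709N, 0.66 to 3.10 with WT and −2.20 to 0.09 with GFP. The ranges of the DICER1 groups overlapped, and replicate 2 was the highest array of each group.

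Among the pocket protein genes, Rb1 was lowest with WT DICER1 and Rbl1 was highest with the mutants. Rb1, which codes for the retinoblastoma protein itself, was at 0.89, 0.96 and 0.82 in replicates 1, 2 and 3 of G1809R, 0.77, 1.04 and 0.74 of D1709N, 0.28, 0.53 and 0.36 of WT and 0.95, 1.21 and 0.94 of GFP. The 3 WT arrays lay below all other 9 arrays, while the mutant and GFP arrays overlapped. Rb1 fell 1.56-fold with WT against GFP (log2 change −0.64 ± 0.13 SE, limma adjusted p = 0.0301). The fall had nearly the same size in every pair, at −0.67, −0.67 and −0.58, and with the replicate block the adjusted p was 0.00122. On slide 1 the difference was −0.67 from 1 array each, on slide 2 it was −0.63 (adjusted p = 0.19), and with the slide as a block the adjusted p was 0.0111.

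The fit on group alone lost the Rb1 call when any of 6 arrays was left out, of 12 tried. With G1809R replicate 3 left out the adjusted p was 0.0504. With GFP replicates 1, 2 and 3 left out one at a time it was 0.081, 0.0864 and 0.0971, and with WT replicates 1 and 3 it was 0.0967 and 0.067. The fit with the replicate block kept it in 12 of 12. The mean level of the interferon-stimulated genes was 0.66 to 3.10 on WT and −2.20 to 0.09 on GFP arrays, and Vim and Pdgfra, among the stromal markers, were lower with WT as well. The part of either in the Rb1 result was not tested. In bulk RNA, fewer cells of a type and less RNA per cell cannot be told apart.

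Rb1 with the mutants stood 0.50 ± 0.13 (G1809R) and 0.46 ± 0.13 (D1709N) above WT. Neither difference was called on group alone (adjusted p = 0.0983 and 0.119), and both were with the replicate block (0.00437 and 0.0057), also in 12 of 12 blocked fits that left out an array. Against GFP, Rb1 differed by −0.14 ± 0.13 with G1809R and −0.18 ± 0.13 with D1709N, and neither was called in the fit with the block (0.305 and 0.186). The comparisons share the WT or the GFP arrays, so they are not independent of each other.

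**Figure D1:**
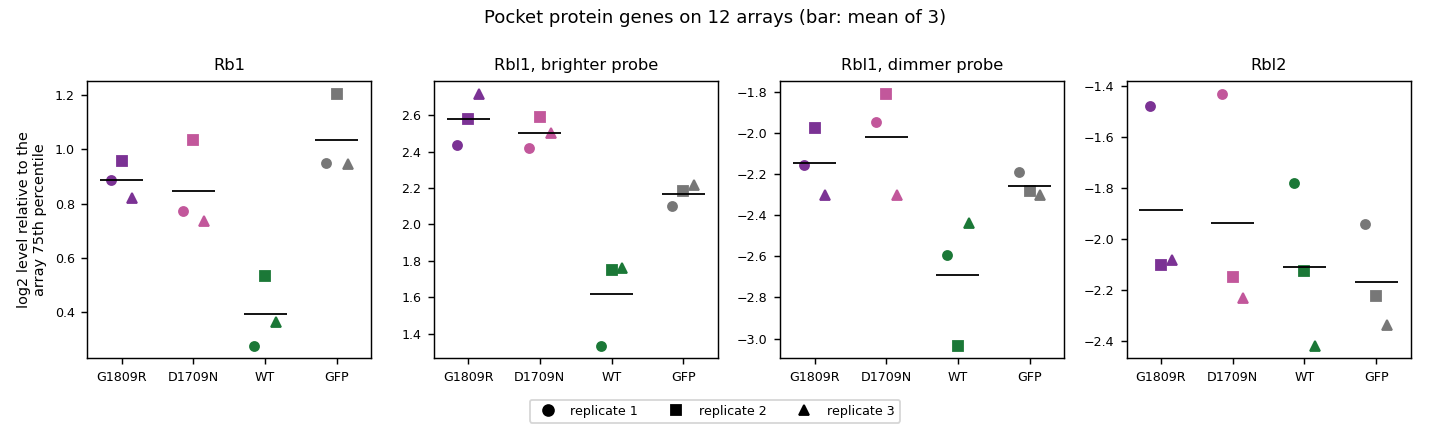
Log2 level of the pocket protein genes above or below the array's 75th percentile (y axis) on each of the 12 arrays, by group (x axis), with 1 point per array, its shape giving the replicate number, and a bar at the mean of 3. The WT arrays lie below all others for Rb1 and for both probes of Rbl1, and the groups overlap for Rbl2.

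Rbl1, or p107, is a pocket protein that binds mainly the repressive E2F factors. Its brighter probe was at 2.44, 2.58 and 2.72 in replicates 1, 2 and 3 of G1809R, 2.42, 2.59 and 2.50 of D1709N, 1.33, 1.75 and 1.76 of WT and 2.10, 2.19 and 2.22 of GFP. The groups formed 3 separate levels, with both mutants on top, GFP below them and WT lowest. Rbl1 was 1.95-fold higher with G1809R than with WT (0.96 ± 0.14, adjusted p = 0.0132, 3 of 3 pairs). It was 1.85-fold higher with D1709N than with WT (0.89 ± 0.14, adjusted p = 0.0181, 3 of 3 pairs). On slide 1 these differences were 1.1 and 1.09 from 1 array each. On slide 2 they were 0.89 (adjusted p = 0.108) and 0.79 (0.125), and with the slide as a block the adjusted p was 0.00158 and 0.00219. On group alone the D1709N call was lost without D1709N replicate 1 (0.0505), 2 (0.0929) or 3 (0.0662), and the G1809R call without G1809R replicate 2 (0.0629) or 3 (0.0576). Both were kept without WT replicate 1, at 0.0486 for D1709N and 0.0322 for G1809R.

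Against GFP, Rbl1 was at −0.55 ± 0.14 with WT (adjusted p = 0.0633), and with the replicate block it was called (0.00492), as in all 12 blocked fits that left out an array. With G1809R it was at 0.41 ± 0.14 against GFP, higher in 3 of 3 pairs (adjusted p = 0.554, and 0.0479 with the block). Of the 12 blocked fits that left out an array, only the one without WT replicate 1 called it (0.0307), and the adjusted p in the others ranged up to 0.186, without GFP replicate 3. With D1709N it was at 0.33 ± 0.14 (0.628, and 0.0791 with the block), also higher in 3 of 3 pairs.

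Rbl1 has a 2nd, dimmer probe for another transcript, at −2.16, −1.98 and −2.30 with G1809R, −1.95, −1.81 and −2.30 with D1709N, −2.59, −3.03 and −2.44 with WT and −2.19, −2.28 and −2.30 with GFP. Its WT arrays were again below the other 9, but the mutants overlapped with GFP. Fitted as its own feature over 33023 probes it was at 0.54 ± 0.18 for G1809R against WT (adjusted p = 0.244, 0.0954 with the block), 0.67 ± 0.18 for D1709N against WT (0.123, 0.0431 with the block) and −0.43 ± 0.18 for WT against GFP (0.303, 0.146 with the block). The differences had the sign of those on the brighter probe.

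Rbl1 is itself known as a gene that E2F factors regulate, and its promoter is shown because E2F genes differed in the same comparisons. The window runs from 250 bases before to 50 bases after the start, at chr2:157204485-157204784 on the minus strand of GRCm38.p6 (RefSeq). Capitals mark a match to the E2F motif, searched on both strands as TTTCCCGC, TTTCGCGC, TTTGCCGC or TTTGGCGC.
Rbl1 promoter: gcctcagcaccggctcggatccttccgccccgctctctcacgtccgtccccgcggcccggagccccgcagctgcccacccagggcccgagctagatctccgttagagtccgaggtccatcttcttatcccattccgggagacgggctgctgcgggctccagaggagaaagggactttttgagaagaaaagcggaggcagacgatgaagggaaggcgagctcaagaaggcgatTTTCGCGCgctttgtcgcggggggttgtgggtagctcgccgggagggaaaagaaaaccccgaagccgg
The match begins 18 bases before the start. Of 32851 promoters of this length, 744 (2.26%) hold the motif. Of the 11 promoters listed for 8 member genes, 2 hold it, that of Rbl1 and 1 of Cdkn2a. A match in these letters is a description and not a measured binding site.

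Rbl2, or p130, is the pocket protein of resting cells. It was at −1.48, −2.10 and −2.08 with G1809R, −1.43, −2.15 and −2.23 with D1709N, −1.78, −2.13 and −2.42 with WT and −1.94, −2.22 and −2.34 with GFP. The groups overlapped throughout, and replicate 1 was the highest of each group. Rbl2 was called in no comparison, with or without the block. Its differences were 0.28 ± 0.26 for G1809R, 0.23 ± 0.26 for D1709N and 0.06 ± 0.26 for WT, each against GFP.

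Among the INK4 inhibitors, Cdkn2c had its lowest mean with WT, as Rb1 did. Cdkn2c codes for p18. It was at −0.68, −1.32 and −1.34 with G1809R, −0.93, −1.11 and −1.41 with D1709N, −1.40, −1.79 and −2.10 with WT and −0.95, −1.41 and −1.46 with GFP. In each replicate number the WT array was the lowest of the 4, but the groups spread across replicate numbers so that WT overlapped with GFP and D1709N. Cdkn2c differed by −0.49 ± 0.25 with WT against GFP (adjusted p = 0.4, and 0.0108 with the replicate block). It differed by 0.65 ± 0.25 with G1809R against WT (0.296, and 0.00488 with the block) and by 0.61 ± 0.25 with D1709N against WT (0.301, and 0.0058 with the block). Each sign held in 3 of 3 pairs. The blocked call against GFP was lost without GFP replicate 3 (0.0647), and those against WT were kept in all 12 blocked fits that left out an array.

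Cdkn2d, which codes for p19 of the INK4 family, was at 2.15, 1.83 and 1.90 with G1809R, 2.19, 1.94 and 1.85 with D1709N, 2.35, 2.30 and 1.92 with WT and 2.07, 2.02 and 1.90 with GFP. It was higher with WT than with GFP in 3 of 3 pairs, by 0.28, 0.28 and 0.02, and the groups overlapped. No comparison called it (0.19 ± 0.15 for WT against GFP, adjusted p = 0.684, and 0.2 with the block).

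Cdkn2a codes for p16 and p19Arf, and Cdkn2b for p15. The 2 probes of Cdkn2a were well above background on 1 and 0 of 12 arrays, and the 2 of Cdkn2b on 0 and 0. The 1 array was WT replicate 1, where the brighter Cdkn2a probe stood at −4.18 against −8.56 to −6.80 on the other 11 arrays. That array is the one that stood apart, and neither the other Cdkn2a probe nor the other WT arrays were above background. No fold is given for either gene.

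Among the CIP/KIP inhibitors, Cdkn1b was lower with each form of DICER1 than with GFP in 3 of 3 pairs, but only the difference with WT was called, in the fit with the block. Cdkn1b codes for p27. It was at 1.68, 1.51 and 0.84 with G1809R, 1.52, 1.37 and 0.95 with D1709N, 1.52, 1.22 and 0.80 with WT and 1.80, 1.76 and 1.26 with GFP. The GFP array was the highest of the 4 in every replicate number, and replicate 3 was the lowest array of each group. The difference from GFP was −0.27 ± 0.27 with G1809R (adjusted p = 1, and 0.13 with the replicate block), −0.33 ± 0.27 with D1709N (0.922, 0.0695 with the block) and −0.43 ± 0.27 with WT (0.558, 0.0107 with the block). The blocked WT call was lost without GFP replicate 3 (0.064). With the slide as the block instead, the limma adjusted p for WT was 0.254.

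Cdkn1a codes for p21, the inhibitor that p53 induces. Its brighter probe, spotted 10 times on each array, was at 4.16, 4.36 and 4.10 with G1809R, 4.37, 4.26 and 4.04 with D1709N, 4.45, 4.56 and 4.37 with WT and 4.10, 4.44 and 3.91 with GFP. Each WT array was the highest of its replicate number, and the WT range overlapped with that of GFP but not, by a narrow margin, with those of the mutants. The difference of WT from GFP was 0.31 ± 0.15 (adjusted p = 0.4, and 0.0658 with the block), which became a call with the block in a single fit, the one without GFP replicate 2 (0.0386). G1809R and D1709N differed from WT by −0.25 ± 0.15 and −0.24 ± 0.15 (0.139 and 0.14 with the block). The dimmer probe of Cdkn1a was not called either, with group means of 0.17 ± 0.32, 0.30 ± 0.21, 0.58 ± 0.27 and 0.40 ± 0.35 (SD, n = 3 each) for G1809R, D1709N, WT and GFP.

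Cdkn1c, an imprinted gene that codes for p57, was near the lower end of detection, above background on 11 of 12 arrays. It was at −4.60, −4.54 and −4.39 with G1809R, −4.58, −4.37 and −4.71 with D1709N, −3.31, −4.41 and −4.39 with WT and −4.39, −4.72 and −4.31 with GFP. The high value was again WT replicate 1, and the other 11 arrays overlapped across groups. No comparison called it (0.43 ± 0.27 for WT against GFP, adjusted p = 0.537, and 0.282 with the block).

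**Figure D2:**
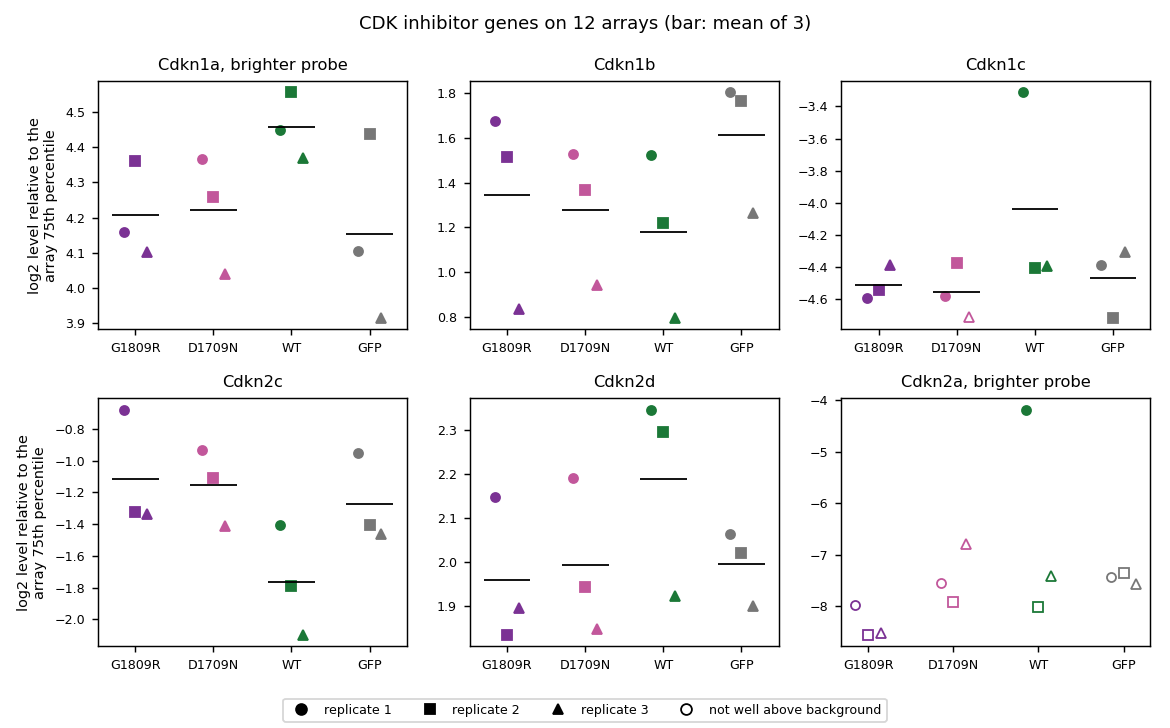
Log2 level of 6 CDK inhibitor genes above or below the array's 75th percentile (y axis) by group (x axis), with 1 point per array, open where the probe was not well above background. Bars are means of 3 and are left out for Cdkn2a. Within each replicate number, WT is lowest for Cdkn2c and GFP is highest for Cdkn1b, and for Cdkn2a 1 array, WT replicate 1, was above background.

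Counted over the 8 members that passed the filter, the fit on group alone called 1 member lower with WT than with GFP (Rb1). Of all genes tested, 1.76% were lower in that comparison, and with the replicate block 4 members (Cdkn1b, Cdkn2c, Rb1 and Rbl1) were lower against 8.61% of all genes. The members' median difference was −0.19, that of all genes 0.04. For D1709N against GFP limma called 0 members (1 at an unadjusted p under 0.05) where 0.0496% of all genes were called, and 0 with the block (3 unadjusted) where 4.25% were. For G1809R against GFP it called 0 members (1 unadjusted) where 0.0124% of genes were called, and with the block 1 member, Rbl1, higher, where 1.75% of all genes were higher.

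For D1709N against WT 1 member, Rbl1, was higher (0.992% of all genes), and 3 with the block, Cdkn2c, Rb1 and Rbl1 (7.12% of all genes). For G1809R against WT 1 member, Rbl1, was higher (1.04% of all genes), and with the block the same 3 as for D1709N (6.36% of all genes). The members' median difference was 0.14 for D1709N and 0.19 for G1809R against WT, beside −0.01 and 0.01 for all genes. Between G1809R and D1709N limma called 0 members (0 at an unadjusted p under 0.05) with or without the block, and 0% of all genes on group alone and 0% with the block. Without WT replicate 1 the fit on group alone called no member for WT against GFP, and Rbl1 for each mutant against WT. All members' differences between the mutants lay between −0.04 and 0.07.

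**Figure D3:**
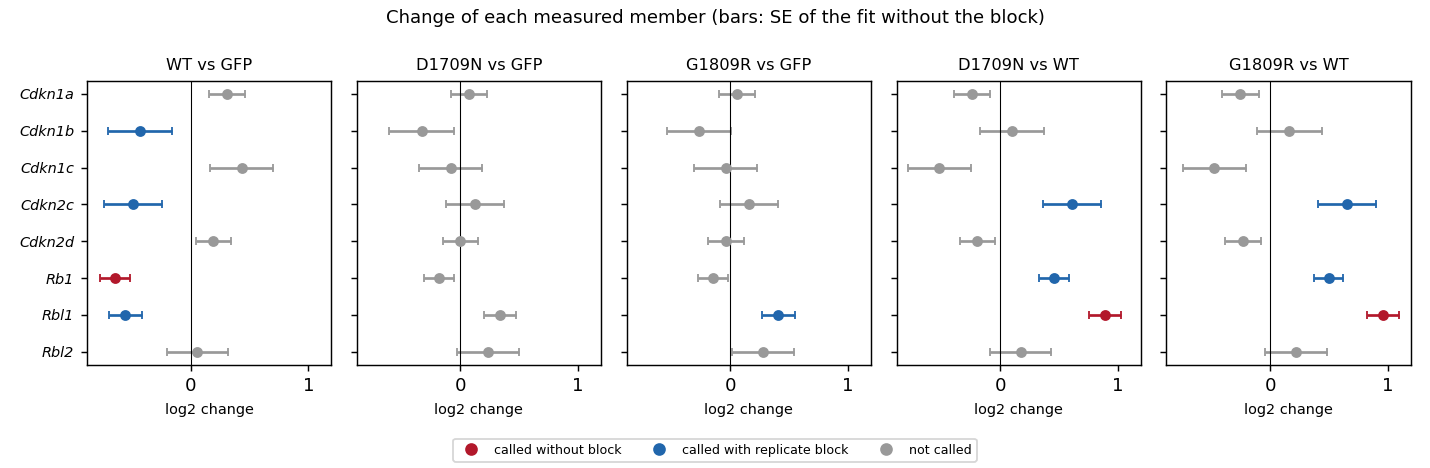
Log2 change of each of the 8 tested members (rows) in 5 comparisons (panels), with bars of 1 SE from the fit on group alone. Red points were called in that fit, blue points only with the replicate number as a block, and grey points in neither. Rb1 is red for WT against GFP, and Rbl1 is red for both mutants against WT.

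The members did not all vary together across the arrays. Pearson's r over the 12 arrays, which share groups and slides, was 0.72 between Rb1 and Rbl1, 0.52 between Rb1 and Cdkn2c and −0.50 between Cdkn1a and Rbl1. A gene most like Rb1 was Hif1an, at r = 0.97. Those most like Rbl1 were Tprgl at 0.96 and Arpin at 0.95. These are descriptions over 12 arrays in 4 groups, with no test.

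Several partners and targets of these proteins also differed between WT and the other groups. E2F and DP factors, most of which form complexes with pocket proteins, were called lower for 4 of 10 genes with WT against GFP, and for 6 with the block. Of all genes, 1.76% were lower in that comparison, and 8.61% with the block. E2f7, a repressor that acts without pocket proteins, fell by 1.20 (± 0.14 SE, adjusted p = 0.00485), E2f5, a factor that p130 binds, by 0.97 (± 0.13, adjusted p = 0.00775) and E2f2 by 1.52 (± 0.26, adjusted p = 0.0173). The median of the list was −0.48, and that of all genes was 0.04. Against WT, 4 of 10 rose with G1809R and 3 of 10 with D1709N (6 and 6 with the block), with list medians of 0.46 and 0.49 and medians of all genes of 0.01 and −0.01. The shares of all genes that were higher were 1.04% with G1809R and 0.992% with D1709N (6.36% and 7.12% with the block). E2f2 rose by 2.21 ± 0.26 with G1809R and 2.19 ± 0.26 with D1709N (adjusted p = 0.00704 and 0.00657). The interferon-stimulated genes differed between WT and GFP as well, and some stromal and epithelial markers between WT and the other groups. With the block, some of these genes and markers also differed between each mutant and GFP. The part of these genes and markers in the list results, and in those of Rbl1 and Cdkn2c, was not tested.

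The E2F target genes, which serve DNA synthesis and mitosis, were lower for 4 of 20 with WT against GFP and for 15 with the block (median −0.47, all genes 0.04). Of all genes, 1.76% were lower in that comparison, and 8.61% with the block. Ccna2, a cyclin that acts in S phase, fell by 1.15 (± 0.11, adjusted p = 0.00193), Bub1, a spindle checkpoint kinase, by 0.97 (± 0.12, adjusted p = 0.00577) and Plk1, a mitotic kinase, by 0.83 (± 0.14, adjusted p = 0.0144). Against WT, 5 of 20 rose with each mutant and 15 with the block (medians 0.54 for G1809R and 0.50 for D1709N). The shares of all genes that were higher were 1.04% with G1809R and 0.992% with D1709N (6.36% and 7.12% with the block). Ccna2 rose by 1.34 ± 0.11 with G1809R and 1.14 ± 0.11 with D1709N (adjusted p = 0.00116 and 0.00276). Without WT replicate 1 the E2F target counts were 2 for G1809R against WT, 2 for D1709N against WT and 3 for WT against GFP, and with the block as well 11, 9 and 12. Over all 12 fits on group alone that left out an array they were 2 to 5, 1 to 6 and 2 to 4, with the fewest on dropping any 1 G1809R array or WT replicate 1, replicate 2 of D1709N, and any 1 GFP array. With the block as well they were 10 to 15, 7 to 15 and 6 to 15, with the fewest on dropping replicate 2 of G1809R or of WT, replicate 2 of D1709N, and replicate 3 of GFP.

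The kinase side of the pathway was mixed. Of 8 G1 cyclins and CDKs, 1 fell with WT against GFP, Ccnd3, a cyclin partner of CDK4 and CDK6, by 0.90 (± 0.19, adjusted p = 0.0389). With the block 1 rose, Ccnd1, by 1.02 (± 0.61 on group alone, adjusted p = 0.512, and 0.00163 with the block), and 3 fell, Ccnd3, Ccne1 and Ccne2, where 9.18% of all genes were higher and 8.61% lower. The list's median was −0.41 beside 0.04 for all genes. Against WT, Ccnd3 rose by 0.94 ± 0.19 with G1809R and 1.01 ± 0.19 with D1709N (adjusted p = 0.0435 and 0.0329), and Ccne2, a cyclin partner of CDK2, rose by 1.51 ± 0.25 with D1709N (0.0223). With the block changes ran both ways. With D1709N 4 rose against WT (Ccnd3, Ccne1, Ccne2 and Cdk4) and 2 fell, Ccnd1 by 0.92 (blocked adjusted p = 0.00329) and Ccnd2 by 0.33 (0.0494), where 7.12% of all genes were higher and 8.42% lower. With G1809R 3 rose (Ccnd3, Ccne1 and Ccne2) and Ccnd1 fell by 0.94 (0.00329), where 6.36% were higher and 6.31% lower. Blocked fits that left out an array gave 3 to 4 higher and 1 to 2 lower for D1709N, with 2 lower only without WT replicate 1, and 2 to 3 higher and 1 to 2 lower for G1809R. Without WT replicate 1 limma called 0 genes of this list on group alone, with 4, 4 and 3 at an unadjusted p under 0.05 for G1809R against WT, D1709N against WT and WT against GFP.

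The remaining lists hold regulators of the members. Of all genes, 1.76% were lower with WT against GFP on group alone, and 9.18% were higher and 8.61% lower with the block. Of 14 tested regulators of CDK inhibitor level, 3 fell with WT against GFP (1 rose and 6 fell with the block), and the list's median was −0.26. They were Ezh2, a histone methyltransferase that represses the Cdkn2a locus, by 0.60 (± 0.09, adjusted p = 0.0106), Ets1, a factor that activates CDKN2A in human cells, by 0.91 (± 0.15, adjusted p = 0.0136) and Dtl, a subunit of a ligase that degrades p21, by 0.87 (± 0.19, adjusted p = 0.0405). Ezh2 rose against WT with G1809R by 0.54 ± 0.09 (0.0212) and with D1709N by 0.46 ± 0.09 (0.039). With the block 2 rose and 1 fell with G1809R against WT, where 6.36% of all genes were higher and 6.31% lower. With D1709N 3 rose, where 7.12% were higher. Of 7 genes in or around DREAM and MuvB, the complexes through which p107 and p130 repress, 1 fell with WT against GFP, Lin9, by 0.70 (± 0.15, adjusted p = 0.0427), and 3 with the block. Of 13 p53 genes and targets, limma called 0 in each comparison on group alone, with at most 1 at an unadjusted p under 0.05. With the block 2 fell with G1809R, 2 with D1709N and 3 with WT, each against GFP, where 1.98%, 2.49% and 8.61% of all genes were lower. Leaving out 1 array changed these to 0 to 2, 0 to 2 and 1 to 3. No call was left for G1809R without any 1 G1809R or GFP array, or for D1709N without replicate 2 or 3 of D1709N or of GFP, and 1 was left for WT without any 1 GFP array or WT replicate 1 or 2. Trp53 itself was at 0.10 ± 0.24 with G1809R, −0.17 ± 0.24 with D1709N and 0.03 ± 0.24 with WT, each against GFP. Over the 72 genes tested on the 6 lists, limma on group alone called 0 for G1809R and 0 for D1709N against GFP (8 and 10 at an unadjusted p under 0.05), and with the block 2 rose and 6 fell for each. Of all genes, 1.75% were higher and 1.98% lower with G1809R in that fit, and 1.77% and 2.49% with D1709N, so the rises are near the share over all genes. Blocked fits that left out an array gave 0 to 2 higher and 0 to 5 lower for G1809R, with the fewest lower without G1809R replicate 2 or GFP replicate 2 or 3, and 1 to 2 higher and 0 to 7 lower for D1709N, with the fewest lower without GFP replicate 2.

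Leaving out 1 array changed many of these pathway calls. For WT against GFP, E2f7, E2f5, Ccna2 and Bub1 were called in 12 of 12 such fits. Ezh2 was lost without GFP replicate 3, Ets1 also without GFP replicate 1, E2f2 when GFP replicate 1 or 3 or WT replicate 2 was dropped, and Plk1 when any 1 GFP array was. Dtl was kept in 3 of 12, Ccnd3 in 2 and Lin9 in 1, with adjusted p up to 0.166, 0.156 and 0.147. Ccna2 and E2f2 were called for each mutant against WT in 12 of 12. Ccne2 was kept in 8 of 12 for D1709N against WT, Ccnd3 in 4 for D1709N and 1 for G1809R, and Ezh2 in 0 for D1709N and 7 for G1809R.

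**Figure D4:**
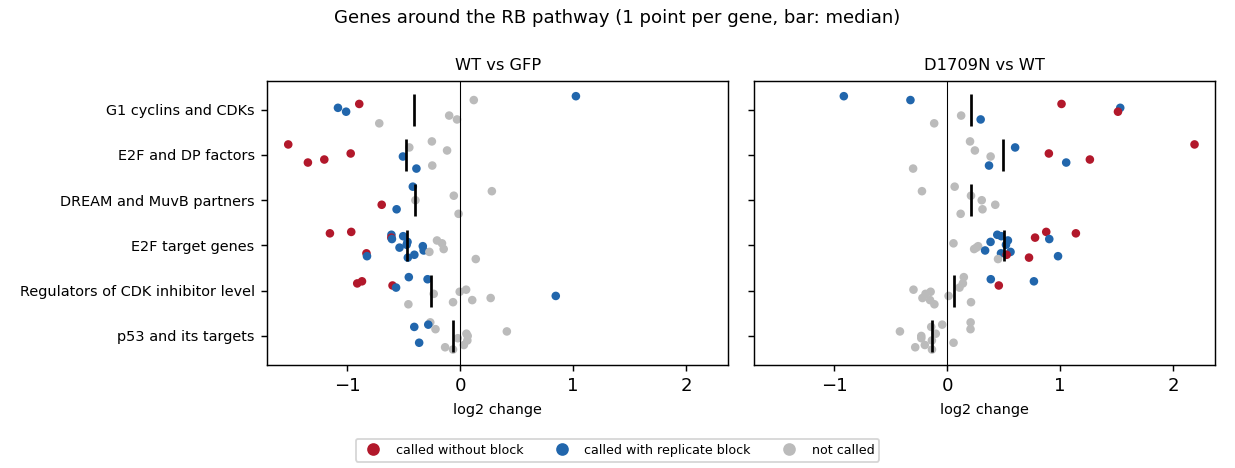
Log2 change (x axis) of the genes of 6 pathway lists (rows) for WT against GFP and for D1709N against WT, with 1 point per gene and a bar at the list's median. Red genes were called on group alone, blue genes only with the replicate block. Medians of the E2F targets are −0.47 and 0.50, and those of the p53 list are −0.06 and −0.14.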

How the data were processed

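RNA of 12 samples was hybridized to 1-colour Agilent mouse arrays. Per the file headers, Agilent Feature Extraction 11.0.1.1 made the deposited intensity values, background-subtracted within the array and not scaled between arrays. The authors' deposited log2 table of the same arrays (normalization not given in the sources used here) was an alternative. Control spots and outlier-flagged spots were left out, spots of 1 probe averaged, and log2 intensity set against each array's 75th percentile. A probe was kept if all arrays of any 1 group had it well above background (33023 probes), with the brightest probe of a gene standing for it. limma 3.58.1 in R 4.3.3 tested 6 comparisons on all 12 arrays, two-sided, group only, with Benjamini-Hochberg adjustment at 0.05. Deviations from the group means correlated at 0.60 to 0.85 between same-numbered arrays, and replicate 1 was slide 1. Replicates 2 and 3 were both on slide 2. Arrays with different numbers were not compared, so these correlations do not tell a pairing of the samples from a slide effect. Alternatives were normexp (offset 50, on the median spot signal, as the mean was not among the columns used), quantile normalization, no dim filter, the deposited table, blocks, slide 2 alone, 2 groups alone, all probes averaged, and each array left out. The members and lists were chosen with earlier results of these data known. Genes named are the members, up to 3 called genes with the smallest p per list and comparison, of which a selection is printed, the 2 genes most alike each called member (1 of them is not reported here), and, chosen after their values were seen, Ccnd1, Ccnd2, Ccne1, Cdk4, Trp53 and the cell type markers with their values or calls. The number of arrays limits the precision. Symbols came from RefSeq accessions, found for 27235 probes.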

Additional observations from a re-analysis of the deposited data

How the results depend on the processing

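The number of members called on group alone was 1 (Rb1) for WT against GFP, 1 (Rbl1) for D1709N against WT, 1 (Rbl1) for G1809R against WT and 0 for the other 3 comparisons. Normexp background, quantile normalization, the deposited table and the mean of all kept probes gave the same counts. No filter on dim probes, slide 2 alone and a fit of only the 2 groups compared each gave 0, 0 and 0 for the first 3 comparisons, with more genes tested or fewer arrays. Without the filter the adjusted p was 0.0993 for Rb1, 0.0661 for Rbl1 with D1709N and 0.052 for Rbl1 with G1809R. With the pairing as a replicate block the counts were 4 for WT against GFP, 3 for D1709N against WT, 3 for G1809R against WT and 1 for G1809R against GFP, and with the slide as a block 3, 3, 3 and 0. Leaving out 1 array gave 0 to 1 for each of the first 3 comparisons and 0 to 0 for the others. With the block as well, an alternative chosen after seeing the data, as were the list counts without WT replicate 1 and the blocked list counts without each array, it gave 2 to 5 for WT against GFP, 3 to 3 for each mutant against WT and 0 to 1 for G1809R against GFP. The cause of these changes was not tested, beyond the fewer arrays or more genes named. No called difference of a member changed sign. Signal near background limits Cdkn1c, Cdkn2a and Cdkn2b.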
